A study of Mus musculus with 15 samples.

Results

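The 40 genes described here encode the enzymes of glycolysis and of the pentose phosphate pathway, the pyruvate dehydrogenase kinases, and components and targets of the hypoxia-inducible factor (HIF) pathway. They were chosen by gene symbol from textbook knowledge of these pathways, and all 40 were found among the 24421 symbols that were compared. RNA was sequenced from a mouse cell line established from the epithelium of adult bile ducts, with the genotype ITR-CreERT2;Klf5flox/flox on the C57BL/6 strain. This genotype gives both loxP-flanked copies of Klf5, a zinc-finger transcription factor, together with a Cre recombinase that becomes active when 4-OH tamoxifen is added. Control cells received the solvent ethanol (EtOH), with 3 libraries at 12 h and 4 at 24 h, and treated cells received 4-OH tamoxifen, with 4 libraries at each time. All groups carried the same genotype, so the tamoxifen itself, the activity of Cre and the loss of Klf5 fall in the same contrast and cannot be told apart. What the letters ITR stand for, which cells the driver is active in, and whether the libraries of a group came from separate cultures are not stated in the labels, so the p-values cover only how these libraries vary among themselves. The series title and its design text differ on whether the structures were grown in vitro or sampled in vivo.

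Glycolysis splits glucose into pyruvate, which is either reduced to lactate or enters the mitochondrion through the pyruvate dehydrogenase complex, and the pyruvate dehydrogenase kinases switch that complex off. The pentose phosphate pathway branches off at glucose 6-phosphate and supplies NADPH and ribose 5-phosphate, with glucose-6-phosphate dehydrogenase at its entry. HIF-1 is a transcription factor whose alpha subunit is marked for degradation by prolyl hydroxylases when oxygen is present, and it is known to raise many glycolytic genes as well as Vegfa, Car9, Ndrg1 and the collagen prolyl hydroxylases when oxygen is scarce.

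The values come from the authors' comparison of tamoxifen with ethanol, 1 table for each time, and no value per library was analysed here. Fold changes are log2 of tamoxifen over ethanol with the standard error (SE) that the authors' test gave, and group levels are mean normalised read counts worked out from the deposited mean over all libraries and the fold. The means summed to 13.9 M reads per library at 12 h and 11.8 M at 24 h, of which the 40 genes held 0.891% and 0.742%. In the authors' deposited tables Klf5 stood at 40.9% of its ethanol level at 12 h and at 30.4% at 24 h. All 10 biliary markers had reads, of which 1 was called lower at 12 h, and 1 lower and 1 higher at 24 h. They had a summed mean of 139451 normalised counts at 12 h and 58109 at 24 h, against 9576 and 4869 for 8 hepatocyte markers. The biliary sum was mostly Krt18 at 48237 and 21895, Krt8 at 37434 and 11173, Spp1 at 25377 and 14407, and Krt19 at 23752 and 6700. Other biliary markers were low, with Epcam at 15.7 and 9.56 and Cftr at 2.25 and 12.7, so the sum does not speak for each marker. The hepatocyte sum was mostly Hnf4a, a transcription factor of hepatocytes and other epithelia, at 7584 and 4146, with the secreted proteins Apoa1 at 1291 and 448 and Ttr at 685 and 267, while Alb was at 3.68 and 1.48 and Cyp2e1 at 0. The summed means were 30.3 and 11.7 for 8 fibroblast and stellate markers, 1.75 and 1.84 for 7 endothelial markers, and 80.7 and 77.9 for 6 immune markers, most of them too low to be tested. None of the hepatocyte markers with an adjusted p, 5 at 12 h and 3 at 24 h, was called by the authors' Wald test, where 0 had an unadjusted p under 0.05. Of the other lists the test covered 1 fibroblast marker at each time, 0 endothelial markers, and 2 and 1 immune markers.

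After 12 h the data show a rise of Pdk4 and G6pdx and no called fall. A gene was called when its adjusted p in the authors' Wald test, after Benjamini-Hochberg adjustment, was under 0.05. Of the 36 genes of these pathways with an adjusted p, 2 rose, 0 fell and 34 did not pass, in the authors' deposited table of 12 h. Of all 13044 genes tested at 12 h, 0.943% were called in that table, 0.215% higher and 0.728% lower. At an unadjusted p under 0.05 in the same Wald test 2 of the 36 lay higher and 2 lower, the latter being Pgk1 and P4ha2.

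After 24 h the picture was a modest fall in several glycolytic and HIF-related genes beside 3 rises. The authors' deposited table of 24 h called 8 of the 36 genes lower and 3 higher, and 25 did not pass. Lower were Hk2, Gapdh, Pgk1, Pkm, Tkt, Hif1a, Ndrg1 and P4ha2, and higher were Pdk4, G6pdx and Egln3. The 8 falls were 22.2% of the 36, where 6.52% of all 11648 genes tested were called lower in that table, and the 3 rises were 8.33%, where 5.90% of all were called higher. In both directions 30.6% of the 36 were called, against 12.4% of all genes. Highly expressed genes were called more often in the authors' deposited table: where the mean reached 1000 normalised counts at 24 h, 7 of 18 pathway genes were called, or 38.9%, all of them lower, against 19.6% of 3249 genes at that level, of which 12.5% of the 3249 were lower. The falls were small, between 0.11 and 0.40 on the log2 scale, and 5 of the 8 also passed a stricter threshold of 0.01.

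The median log2 fold of the 36 genes was -0.03 at 12 h and -0.08 at 24 h in the authors' deposited tables, where the median of all tested genes was -0.01 and -0.00. Folds were below 0 for 21 of the 36 at 12 h and for 26 at 24 h. The sign was the same at both times for 25 of the 36, with 18 lower and 7 higher at both. Of the 11 genes called at 24 h, 10 had the same sign at 12 h, and Hif1a was the exception. Over all genes called at 24 h that share was 90.2%.

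**Figure D1:**
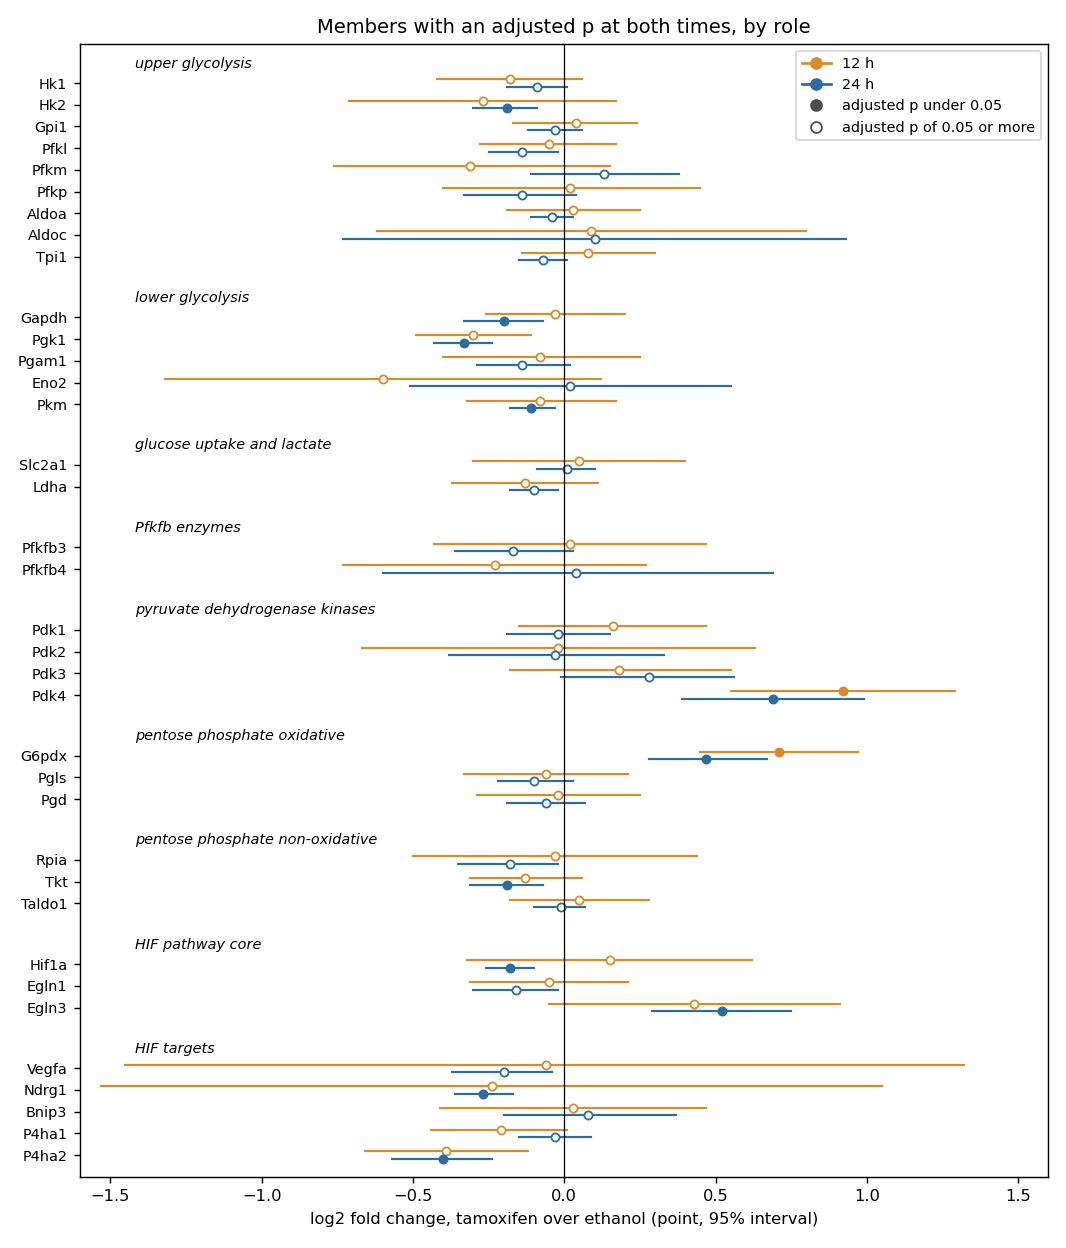
Log2 fold of tamoxifen over ethanol (horizontal axis) for each of the 36 tested genes, ordered by role, at 12 h and at 24 h, with 95% intervals and filled points for genes called at an adjusted p under 0.05. Pdk4 at 0.92 and 0.69 and G6pdx at 0.71 and 0.47 lie to the right at both times, the intervals at 24 h are narrower than at 12 h for most genes, and Vegfa and Ndrg1 have the widest intervals at 12 h.

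Pdk4, on the reverse strand of chromosome 6 from 5483351 to 5496309 (GRCm38), encodes a pyruvate dehydrogenase kinase known to be raised in fasting and by PPAR and FOXO factors. It stood at an implied 517 normalised counts with ethanol and 979 with tamoxifen at 12 h, and at 227 and 367 at 24 h, from the authors' deposited tables. Its log2 fold was 0.92 (SE 0.19) at 12 h in the authors' deposited table, with an adjusted p of 0.000271 in their Wald test. At 24 h Pdk4 rose by 0.69 (SE 0.15), with an adjusted p of 0.000184 in the Wald test of the authors' deposited table. Its tamoxifen level was thus 190% of ethanol at 12 h and 162% at 24 h. The other 3 kinases of the family were not called at either time. Pdk1, a HIF target itself, had folds of 0.16 (SE 0.16) and -0.02 (SE 0.09), Pdk2 had -0.02 (SE 0.33) and -0.03 (SE 0.18), and Pdk3 had 0.18 (SE 0.19) and 0.28 (SE 0.15) in the authors' deposited tables.

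G6pdx, at 74409483 to 74429194 on the reverse strand of chromosome X, encodes the X-linked glucose-6-phosphate dehydrogenase, the committed step of the pentose phosphate pathway. Its implied levels were 789 normalised counts with ethanol and 1292 with tamoxifen at 12 h, and 681 and 946 at 24 h, from the authors' deposited tables. For 12 h the authors' deposited table gave a log2 fold of 0.71 (SE 0.13), with an adjusted p of 4.17e-05 in their Wald test. At 24 h it was 0.47 (SE 0.10) in the authors' deposited table, with an adjusted p of 7.51e-05 in their Wald test. Pdk4 and G6pdx were the 2 pathway genes called at both times, as were 96 genes in all. Of the exon bases of G6pdx, 13.6% lie opposite exons of Ikbkg, which encodes a regulator of NF-kB, and the library kit does not mark the strand. Ikbkg itself had folds of -0.06 (SE 0.13) and -0.14 (SE 0.08) in the authors' deposited tables and was not called. Gpi1 likewise shares 11.5% of its exon bases with a gene on the opposite strand. The retrocopy G6pd2 was at a mean of 0.137 normalised counts at 12 h and 0.128 at 24 h.

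The stretch of 250 bases before the RefSeq start of these genes is shown because both moved within 12 h. Capitals mark 2 motifs searched on both strands: ACGTG, the core of the HIF response element, and CCNCNCCC, a Krüppel-like factor motif that also fits Sp-family factors. On the reverse strand of GRCm38.p6 the Pdk4 stretch lies at chr6:5496279-5496528 and the G6pdx stretch at chrX:74428881-74429130. Each holds 1 match of the Krüppel-like motif, at 73 bases before the start in Pdk4 and 150 in G6pdx, and 0 of the HIF core.
Pdk4: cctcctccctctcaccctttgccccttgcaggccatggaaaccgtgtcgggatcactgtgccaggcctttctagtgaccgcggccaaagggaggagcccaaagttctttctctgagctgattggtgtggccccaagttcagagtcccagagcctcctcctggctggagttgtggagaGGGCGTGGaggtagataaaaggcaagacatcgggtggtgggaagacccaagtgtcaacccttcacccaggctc
G6pdx: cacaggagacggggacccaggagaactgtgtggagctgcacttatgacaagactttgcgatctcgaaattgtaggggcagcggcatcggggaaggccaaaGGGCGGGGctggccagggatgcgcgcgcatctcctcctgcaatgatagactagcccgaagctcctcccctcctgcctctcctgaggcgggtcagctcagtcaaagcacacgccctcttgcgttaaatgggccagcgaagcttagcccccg

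The steps above fructose 1,6-bisphosphate and its cleavage held 9 tested genes, of which 0 were called at 12 h and Hk2 alone was called at 24 h. Hk2 encodes the inducible hexokinase. Its implied levels were 673 normalised counts with ethanol and 559 with tamoxifen at 12 h and 1200 and 1049 at 24 h, from the authors' deposited tables. At 24 h it fell by 0.19 on the log2 scale (SE 0.05), with an adjusted p of 0.00304 in the Wald test of the authors' deposited table, and at 12 h its fold was -0.27 (SE 0.22). Hk1, the constitutive hexokinase, was at -0.18 (SE 0.12) and -0.09 (SE 0.05) in the authors' deposited tables. Gpi1, the glucose phosphate isomerase, was at 0.04 and -0.03, the aldolase Aldoa at 0.03 and -0.04, and the triose phosphate isomerase Tpi1 at 0.08 and -0.07, all with an SE of 0.11 at 12 h and at most 0.05 at 24 h in the authors' deposited tables. The phosphofructokinases, which make the committed step of glycolysis, were not called: Pfkl was at -0.05 (SE 0.12) and -0.14 (SE 0.06), Pfkm at -0.31 (SE 0.23) and 0.13 (SE 0.13), and Pfkp at 0.02 (SE 0.22) and -0.14 (SE 0.09) in the authors' deposited tables. Aldoc, a brain-type aldolase, had an implied 24.1 normalised counts with ethanol at 12 h and 10.3 at 24 h, and its 95% interval reached past a 1.5-fold difference at both times.

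The lower steps of glycolysis carried 3 of the 8 falls at 24 h among 5 tested genes. Pgk1, the phosphoglycerate kinase that makes the first ATP of the pathway and a classical HIF target, had the smallest p of all 36. It stood at an implied 5298 normalised counts with ethanol and 4305 with tamoxifen at 12 h, and at 3664 and 2905 at 24 h, from the authors' deposited tables. At 24 h Pgk1 fell by 0.33 (SE 0.05) to 79.3% of ethanol in the authors' deposited table, with an adjusted p of 4.15e-11 in their Wald test. Its fold at 12 h was already -0.30 (SE 0.10), 81.3% of ethanol, in the authors' deposited table, and the adjusted p of 0.145 in their Wald test did not pass. Gapdh, which feeds Pgk1, fell by 0.20 (SE 0.07) at 24 h, from 2549 to 2225 implied normalised counts, with an adjusted p of 0.0285 in the Wald test of the authors' deposited table. Pkm, the pyruvate kinase of most tissues, fell by 0.11 (SE 0.04), from 15495 to 14366, with an adjusted p of 0.0402 in the Wald test of the authors' deposited table. This call did not hold with the Wald p adjusted across every gene that had one, which gave an adjusted p of 0.0545. Pgam1, the phosphoglycerate mutase, was at -0.14 (SE 0.08) at 24 h in that table, and the neuronal enolase Eno2 was at 0.02 (SE 0.27) from about 27 normalised counts.

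Pgk1 spans positions 106187100 to 106203699 of chromosome X on the forward strand (GRCm38), and the 250 bases before its RefSeq start, chrX:106186850-106187099 on the forward strand, are shown because it had the smallest p. The stretch holds 2 matches of the HIF core, at 150 and 131 bases before the start, and 1 of the Krüppel-like motif at 178, in capitals as above.
Pgk1: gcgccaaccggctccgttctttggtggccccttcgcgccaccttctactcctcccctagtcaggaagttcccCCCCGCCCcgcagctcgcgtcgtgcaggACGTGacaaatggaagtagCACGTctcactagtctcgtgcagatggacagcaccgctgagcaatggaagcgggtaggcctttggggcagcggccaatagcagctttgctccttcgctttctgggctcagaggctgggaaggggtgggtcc

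The reads of several of these genes are uncertain because processed copies lie elsewhere in the genome. Some 50-base stretches of the longest protein-coding transcript of a gene also occur in a transcript of another annotated gene. Their share was 82.5% in Gapdh, 68% in Pgk1, 41.5% in Pgam1, 34.4% in Pkm and 25.3% in Gpi1. For Pgk1 the other gene was most often the copy Pgk1-rs7. How such reads were counted is not given in the sources used here. Levels of these genes may therefore be too low or too high, while the same counting applied to ethanol and tamoxifen libraries alike. The stretches of Hk2, Tkt, P4ha2 and Egln3 were unique at that length, and 1.43% of those of Pdk4 were shared.

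Of the genes of glucose entry and lactate, Slc2a1 and Ldha were tested and not called. The lactate exporter Slc16a3 had too few reads to be tested. Slc2a1, the glucose transporter GLUT1 and a HIF target, was at 0.05 (SE 0.18) and 0.01 (SE 0.05) in the authors' deposited tables, with a 95% interval of -0.09 to 0.10 at 24 h. Ldha, the lactate dehydrogenase subunit that favours lactate formation, was at -0.13 (SE 0.12) and -0.10 (SE 0.04), and its adjusted p at 24 h was 0.0726 in the Wald test of the authors' deposited table. Pfkfb3 and Pfkfb4 make fructose 2,6-bisphosphate, an activator of phosphofructokinase. In the authors' deposited table their folds at 24 h were -0.17 (SE 0.10) and 0.04 (SE 0.33), and neither was called at either time.

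In the pentose phosphate pathway G6pdx was the only called gene of 3 in the oxidative branch. Pgls, which opens the lactone, was at -0.06 (SE 0.14) and -0.10 (SE 0.06), and Pgd, the other NADPH-forming dehydrogenase, was at -0.02 (SE 0.14) and -0.06 (SE 0.07) in the authors' deposited tables, and neither was called. Among the non-oxidative enzymes Tkt, the transketolase and the most abundant of the pathway's transcripts, fell by 0.19 (SE 0.06) at 24 h, from 11109 to 9728 implied normalised counts, with an adjusted p of 0.0179 in the Wald test of the authors' deposited table. Rpia, the ribose 5-phosphate isomerase, was at -0.18 (SE 0.08) and Taldo1, the transaldolase, at -0.01 (SE 0.04) at 24 h in that table, and neither was called. The difference in fold between G6pdx and these enzymes was not tested.

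**Figure D2:**
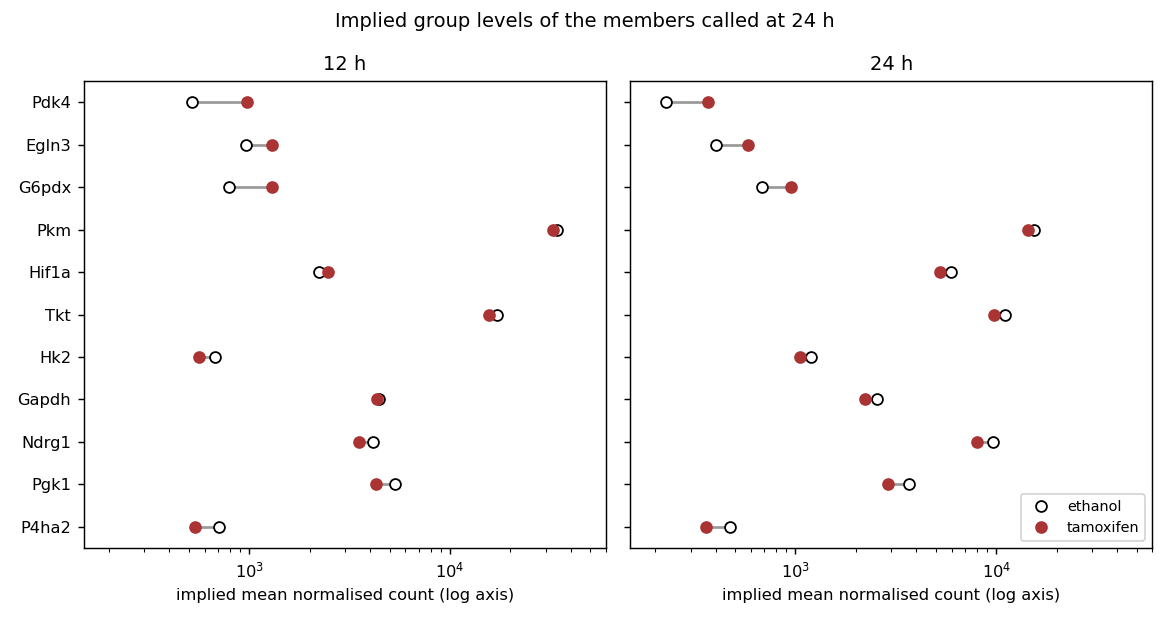
Implied mean normalised counts (log axis) with ethanol and with tamoxifen for the 11 genes called at 24 h, at 12 h on the left and 24 h on the right, without error since the values per library were not analysed here. Pdk4, G6pdx and Egln3 have the tamoxifen point to the right at both times, and Pgk1, P4ha2, Ndrg1, Hk2, Tkt, Gapdh and Pkm have it to the left at both times. Hif1a goes from 2217 to 2467 at 12 h and from 5941 to 5243 at 24 h.

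Of the HIF pathway core, Hif1a fell and Egln3 rose at 24 h. Hif1a encodes the oxygen-regulated subunit of HIF-1, which is controlled mostly at the level of protein stability. Its implied levels were 2217 normalised counts with ethanol and 2467 with tamoxifen at 12 h, and 5941 and 5243 at 24 h, from the authors' deposited tables. At 24 h it fell by 0.18 (SE 0.04), with an adjusted p of 0.000116 in the Wald test of the authors' deposited table. Its fold at 12 h was 0.15 (SE 0.24) with a 95% interval of -0.32 to 0.62 in the authors' deposited table, which includes the value of 24 h. Egln3 encodes the prolyl hydroxylase PHD3, itself a HIF target and a brake on HIF. It stood at 966 and 1301 implied normalised counts at 12 h and at 403 and 578 at 24 h, from the authors' deposited tables. Egln3 rose by 0.52 (SE 0.12) at 24 h, with an adjusted p of 0.000201 in the Wald test of the authors' deposited table, and at 12 h it was at 0.43 (SE 0.24) and not called. Egln1, the prolyl hydroxylase PHD2, was at -0.05 (SE 0.13) and -0.16 (SE 0.07) in those tables and not called.

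Of 5 tested HIF targets, 0 were called at 12 h and 2 fell at 24 h. P4ha2, a collagen prolyl 4-hydroxylase subunit, fell by 0.40 (SE 0.08) at 24 h, from 472 to 357 implied normalised counts, with an adjusted p of 5.24e-05 in the Wald test of the authors' deposited table. At 12 h P4ha2 was at -0.39 (SE 0.14), 706 against 539, and its adjusted p of 0.258 did not pass in the Wald test of that table. Its sister subunit P4ha1 was at -0.21 (SE 0.12) and -0.03 (SE 0.06) in the authors' deposited tables and was not called. Ndrg1, a stress- and hypoxia-responsive gene, fell by 0.27 (SE 0.05) at 24 h, from 9688 to 8050, with an adjusted p of 1.12e-06 in the Wald test of the authors' deposited table. Vegfa, the angiogenic growth factor, was at -0.20 (SE 0.08) at 24 h, 7979 against 6927, and the Wald test of the authors' deposited table missed the threshold with an adjusted p of 0.0908. Bnip3, a mitophagy receptor, was at 0.03 (SE 0.22) and 0.08 (SE 0.15) in the authors' deposited tables from under 100 normalised counts. Of its reads some may belong elsewhere, since 62.4% of its 50-base stretches also occur in another gene, and 22.3% of its exon bases lie opposite another gene.

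The stretches before the RefSeq starts of Hif1a, at chr12:73907617-73907866, and P4ha2, at chr11:54100674-54100923, both on the forward strand of GRCm38.p6, are shown for comparison with Pgk1. The Hif1a stretch holds 3 matches of the HIF core, of which 2 are the strands of a single palindrome CACGTG, and 4 of the Krüppel-like motif. The P4ha2 stretch holds 1 match of the HIF core, at 78 bases before the start, and 3 of the Krüppel-like motif. Ndrg1 had no entry in the promoter table.
Hif1a: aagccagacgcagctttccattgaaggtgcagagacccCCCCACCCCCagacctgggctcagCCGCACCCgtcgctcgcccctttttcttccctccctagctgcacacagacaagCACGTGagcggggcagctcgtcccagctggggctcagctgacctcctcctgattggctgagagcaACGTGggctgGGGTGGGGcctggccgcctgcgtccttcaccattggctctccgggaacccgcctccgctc
P4ha2: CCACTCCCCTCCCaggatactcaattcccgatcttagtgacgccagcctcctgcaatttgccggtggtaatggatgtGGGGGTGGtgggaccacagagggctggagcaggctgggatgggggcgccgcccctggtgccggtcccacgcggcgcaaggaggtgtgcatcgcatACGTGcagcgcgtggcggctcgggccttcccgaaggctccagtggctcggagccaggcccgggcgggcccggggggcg

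Of the 40 genes, 39 had a RefSeq promoter, and in the first listed start of each the HIF core was present in 17, or 43.6%, and the Krüppel-like motif in 33, or 84.6%. Over the first start of all 27025 genes these shares were 16.6% and 45.6%. Among the 10 called genes with a promoter the HIF core was in 5 and the Krüppel-like motif in 10. The 40 genes include known HIF targets by choice, and the windows were not matched on base composition, so the counts describe the letters alone.

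Eno1, Slc16a3, Car9 and Adm had too few reads to be tested. Summed over all libraries, their normalised reads were 3.99, 6.07, 2.95 and 11.1 at 12 h and 0, 1.07, 1 and 6.09 at 24 h, from the deposited means. Car9, a carbonic anhydrase used as a hypoxia marker, was thus at or under 3 reads in all libraries of a time, and Slc16a3, the lactate exporter MCT4, was at about 1 at 24 h. For Eno1, the ubiquitous enolase, 72.2% of the 50-base stretches also occur in another annotated gene, most often Eno1b. Eno1b was itself at 0.957 and 1.01 normalised reads in all libraries. Gapdh, with 82.5% of its stretches shared, still had means of 4370 and 2387 normalised counts. Why Eno1 had so few reads was not tested, and no level of the enzyme is given.

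The spread between libraries was wider at 12 h than at 24 h. The coefficient of variation between libraries implied by the SE had a median of 12.3% over the 32 pathway genes whose mean reached 100 normalised counts at 12 h, and of 5.55% over the 30 such genes at 24 h, while all genes had 13.5% and 6.1%. For Vegfa it was 64.3% at 12 h and 8.07% at 24 h, and for Ndrg1 59.7% and 4.56%. Vegfa's SE at 12 h was 5.5 times the running median of genes of similar mean, with 20 of 9587 genes higher, and that of Ndrg1 was 5.02 times, with 27 higher. Hif1a had 21.7% and 3.59%, Egln3 21.9% and 10.5% and Hk2 19.9% and 4.1%, whereas G6pdx had 11.7% and 9.17%. Above 50% at 12 h and under 10% at 24 h lay 57 of 9008 genes whose mean reached 100 at both times, among them Vegfa and Ndrg1. The method of the authors' tool draws the spread of most genes toward a common trend and keeps outlying genes apart, so the largest values stand further off than the rest. Which libraries varied, and in which group, cannot be read from these tables. Of the 34 genes not called at 12 h, 23 had a 95% interval within a 1.5-fold difference either way. The 11 with wider intervals were Hk2, Pfkm, Aldoc, Eno2, Pfkfb4, Pdk2, Hif1a, Egln3, Vegfa, Ndrg1 and P4ha2. At 24 h this held for 23 of 25, with Aldoc and Pfkfb4 as the exceptions.

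**Figure D3:**
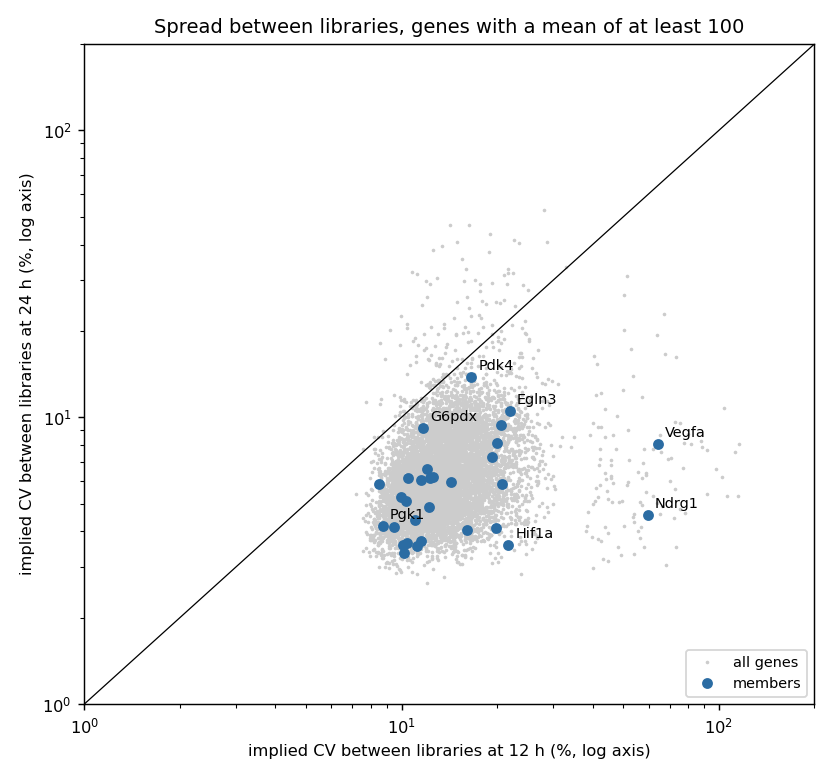
Implied coefficient of variation between libraries at 12 h (horizontal) and at 24 h (vertical), both in percent on log axes, for 9008 genes in grey and 30 pathway genes in blue, with the line of equal values. Nearly all points lie below the line, and Vegfa at 64.3% and Ndrg1 at 59.7% lie far to the right while at 24 h they are at 8.07% and 4.56%.

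The fold at 24 h was compared with that at 12 h by dividing the difference of both log2 folds by its SE, taken from both tables. By this test, with Benjamini-Hochberg adjustment over 14981 genes, 0 pathway genes differed between the times, where 0.0134% of all genes were called. At an unadjusted p under 0.05 lay 0 of 39 pathway genes, against 1.64% of all genes with a p at both times. The 0 is near that share. The smallest unadjusted p among the 40 was 0.0963, for Pfkm, whose difference was 0.44 (SE 0.26) from the authors' deposited tables. For Pdk4 the difference, 24 h minus 12 h, was -0.23 (SE 0.24), for G6pdx -0.24 (SE 0.17), for Pgk1 -0.04 (SE 0.11) and for Hif1a -0.33 (SE 0.24), from the authors' deposited tables. A call at 24 h alone, as for Egln3 or P4ha2, is therefore not a measured difference between the times.

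Levels of some of these genes stood far apart at 12 h and 24 h in both groups. The times were normalised in separate tables and no test was made between them. Scaled to CPM of the summed means over all libraries, Hif1a was at 170 at 12 h and 472 at 24 h, Vegfa at 231 and 629, Ndrg1 at 272 and 749, and Hk2 at 43.8 and 94.9. In the other direction Pkm was at 2388 and 1261, Egln3 at 83.3 and 41.4, Pdk4 at 56.2 and 25.1, and Pfkm at 38.2 and 13.4. All genes with a mean of at least 100 had a median implied spread between libraries of 13.5% at 12 h. The genes named here lay above it, except Pkm, and the widest spread was that of Vegfa and Ndrg1, both higher at 24 h. The implied coefficient of variation at 12 h was 21.7% for Hif1a, 64.3% for Vegfa, 59.7% for Ndrg1 and 19.9% for Hk2. In the other direction it was 21.9% for Egln3, 20.6% for Pfkm, 16.6% for Pdk4 and 11.5% for Pkm. Whether harvest, culture or the batch of libraries differed between the times is not stated in the labels and was not tested.

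Per kilobase of exon, Pkm had the highest level of the 40 genes at both times, with a mean of 6632 normalised counts per kilobase at 12 h and 2985 at 24 h. Aldoa followed with 4053 and 2853. Within a family, shares of the summed level per kilobase do not depend on the scaling of a table. Of the hexokinases, Hk1 held 65.6% and Hk2 23.9% with ethanol at 12 h, and 46.9% and 49% with ethanol at 24 h. With tamoxifen Hk1 held 67.2% and Hk2 23% at 12 h, and 48.4% and 46.9% at 24 h, so the groups were nearer to each other than the times. Pfkl held 60.3% of the phosphofructokinases with ethanol at 12 h and 76.2% at 24 h, and Pfkm 33.2% and 14.8%. Pdk4 held 50.5% of the pyruvate dehydrogenase kinases with ethanol and 64.3% with tamoxifen at 12 h, and 38.8% and 49.3% at 24 h. Egln3 held 38.2% of the HIF prolyl hydroxylases with ethanol and 46.1% with tamoxifen at 12 h, and 27.1% and 36.5% at 24 h. Shares are derived from means without a value per library and carry no error.

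**Figure D4:**
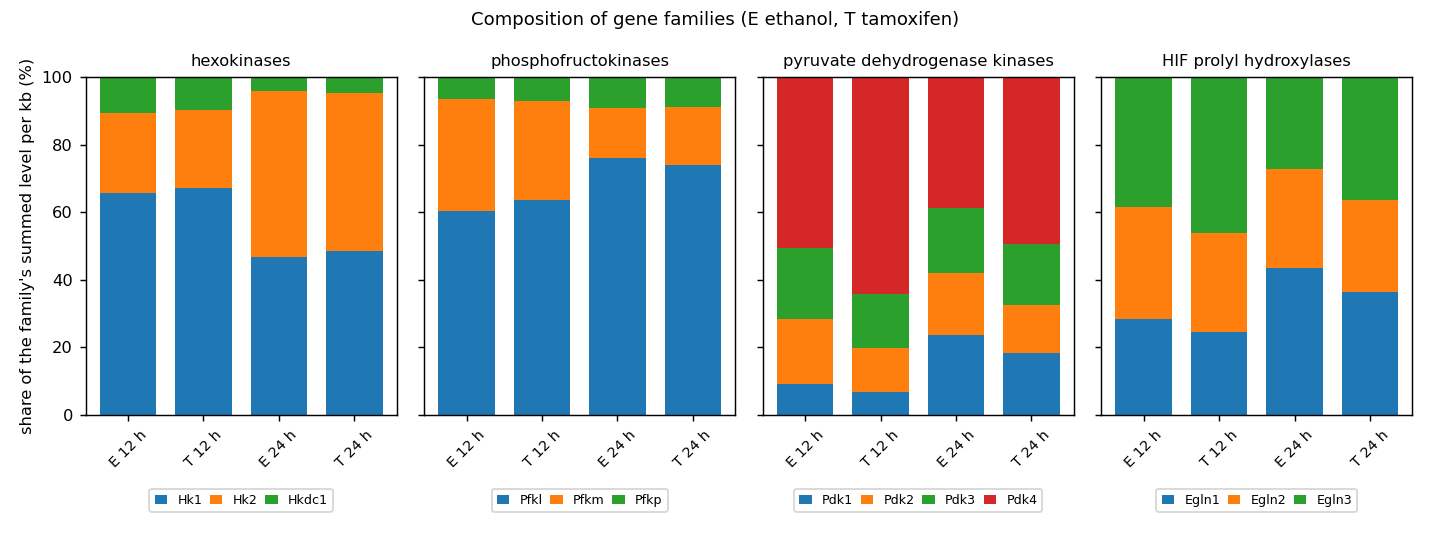
Share of each gene in the summed level per kilobase of its family (vertical axis, percent) with ethanol (E) and tamoxifen (T) at 12 h and 24 h, derived from the deposited means and folds and without error. Hk2 goes from 23.9% to 49% between the ethanol groups of the times, and Pdk4 is larger with tamoxifen than with ethanol at both times.

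Other genes of the same pathways were taken from lists of known members, whose counts stand beside the 12.4% of all genes called at 24 h, 6.52% lower and 5.90% higher. Of 15 further genes of glycolysis and glucose transport tested at 24 h, the authors' deposited table called 1 lower, or 6.67%. It was Pfkfb2, another maker of fructose 2,6-bisphosphate, which fell by 0.39 (SE 0.06), from 1112 to 847 implied normalised counts, with an adjusted p of 6.97e-08 in the Wald test of the authors' deposited table. Of the 10 genes of pyruvate entry and the pyruvate dehydrogenase complex, the substrate of Pdk4, 0 rose and 2 fell, or 20%, Pdha1 by 0.14 (SE 0.05) and Dld by 0.15 (SE 0.05), as the authors' deposited table of 24 h shows. Pdp1 and Pdp2, the phosphatases that oppose the kinases, had values of 0.24 (SE 0.19) and -0.15 (SE 0.17) at 24 h by the authors' deposited table and were not called.

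Of 6 further pentose phosphate and phosphoribosyl genes tested at 24 h, 2 rose and 1 fell, or 33.3% and 16.7%, where all genes had 5.90% and 6.52%. H6pd, the counterpart of G6pdx in the endoplasmic reticulum, rose by 0.18 (SE 0.05), from 2964 to 3364 implied normalised counts, with an adjusted p of 0.00243 in the Wald test of the authors' deposited table. Prps2, which turns ribose 5-phosphate into the precursor of nucleotides, rose by 0.27 (SE 0.07), and Shpk, the sedoheptulokinase, fell by 0.40 (SE 0.14) in that table. A list of NRF2 targets also held Nfe2l2, the gene of NRF2 itself, and genes that neither supply nor use NADPH. Of its 8 tested genes, the authors' deposited table of 24 h called 0 higher and 1 lower, or 12.5%. It was Me1, the malic enzyme that forms NADPH, which fell by 0.32 (SE 0.04), from 5833 to 4658, with an adjusted p of 1.12e-14 in the Wald test of the authors' deposited table. At an unadjusted p under 0.05 in the same Wald test 2 of the 8 lay higher and 1 lower.

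None of 7 further HIF subunits and oxygen sensors was called at 24 h by the authors' Wald test, where 1 lay higher and 1 lower at an unadjusted p under 0.05. Of 19 further HIF targets, the authors' deposited table called 1 higher and 1 lower at 24 h, together 10.5% where all genes had 12.4%. Hilpda, a lipid droplet protein, fell by 0.43 (SE 0.09), and Angptl4, a lipase inhibitor known as a target of both HIF and PPAR, rose by 0.47 (SE 0.12), both from the authors' deposited table. Among 9 tested fasting and PPAR response genes Angptl4 rose and 2 fell, or 11.1% and 22.2% of this short list. These were Pparg, which encodes a nuclear receptor of fat metabolism, at -0.72 (SE 0.14), and Plin2, a lipid droplet coat protein, at -0.17 (SE 0.04) in the authors' deposited table. Pparg was also the only called gene of these lists at 12 h, at -0.87 (SE 0.22), with an adjusted p of 0.0137 in the Wald test of the authors' deposited table. Cpt1a, which like Pdk4 is known to respond to fasting, was at 0.02 (SE 0.05) at 24 h in the authors' deposited table and not called. None of 4 MondoA-related glucose response genes and of 3 tested gluconeogenic genes was called by the authors' Wald test at 24 h, and 0 had an unadjusted p under 0.05.

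**Figure D5:**
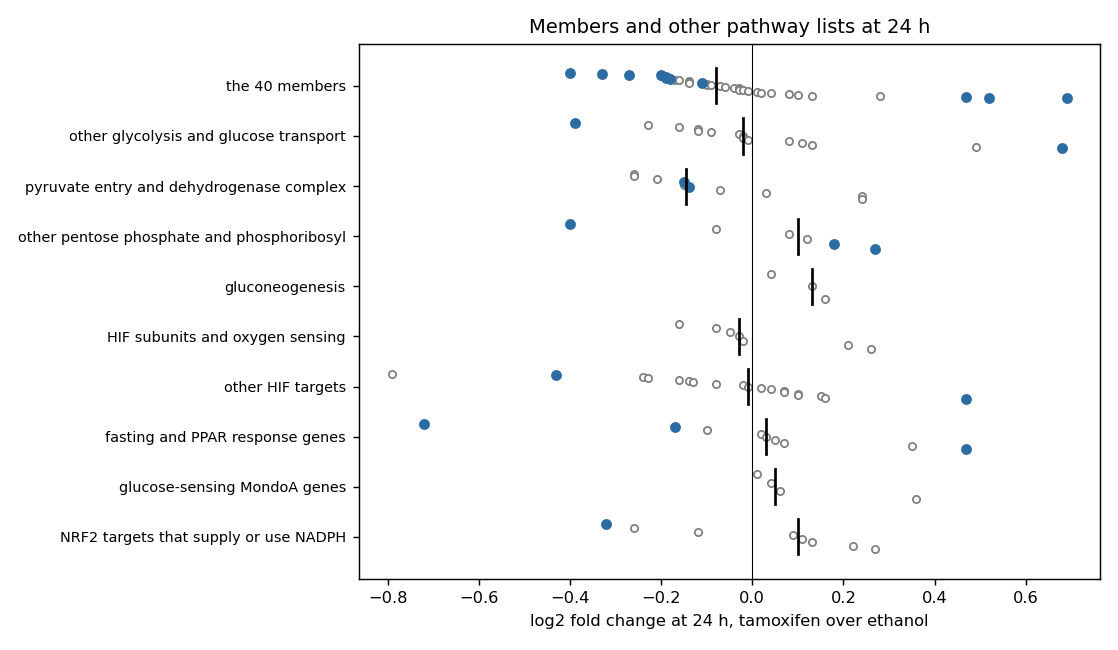
Log2 fold at 24 h (horizontal axis) of every tested gene, with the 36 tested of the 40 pathway genes in the top row, the other lists below, filled points for called genes and a vertical bar at the median of each row. The top row has its median at -0.08 and reaches from P4ha2 at -0.40 to Pdk4 at 0.69. In the row of NRF2 targets not every gene supplies or uses NADPH.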

How the data were processed

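Single-end libraries were made with the TruSeq RNA v2 kit from Trizol-extracted total RNA, per the labels' protocols; this kit does not mark the strand. HISAT2, mm10 and DESeq2 are named, without versions, per the submitters' processing notes. Not given in the sources used here are the counting tool, the annotation and the formula. Per the file headers, the authors' tables hold for each gene the mean normalised read count over all libraries (baseMean, a signal scaled by the authors' size factors), the log2 fold change with its SE, the Wald score, and the p-value with its Benjamini-Hochberg adjusted p-value. The adjusted p is blank for low genes. Values per library and the ethanol library numbered 2 at 12 h were not analysed here. At 12 h the lowest means, of single reads, split by sign of the fold as 3 ethanol and 4 tamoxifen libraries require. At 24 h the split of 4 and 4 does not show a direction, and that of 12 h was taken to hold. With it the log2 fold of Klf5 was -1.29 at 12 h and -1.72 at 24 h. Of all genes called at 24 h, 90.2% had the same sign at 12 h.

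The pathway genes and lists were chosen with earlier results of these data known, and no test over a list was made. All 40 genes were eligible to be named, and of the other lists those called at either time, at most 6 a list. Others named (Ikbkg, G6pd2, Eno1b, Pdp1, Pdp2, Cpt1a and markers) were chosen after their values were seen. Some genes of the other lists are not reported here. Group levels were computed from mean, fold and group sizes, and the coefficient of variation from the SE. Levels per kilobase and overlaps used GENCODE exons on GRCm38. Shared 50-base stretches used the longest protein-coding GENCODE transcript of each gene against the transcripts of other genes. Promoters came from RefSeq (GRCm38.p6), and protein sequences were not used here. The 95% intervals are normal intervals from the SE and cover only the spread it holds; no molecular identifiers were used, so reads are not independent molecules. The calculations were tested on simulated data. Alternatives were adjustment over all genes, a minimum mean of 100, centring, a raised SE and a threshold of 0.01. Python 3.11.15 was used with matplotlib 3.10.9, scipy 1.17.1, pandas 2.3.3 and numpy 2.4.6.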

Additional observations from a re-analysis of the deposited data

How the results depend on the processing

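Of the recomputed values of single genes, 653 kept their direction and their side of the threshold, 12 lost the call and 0 changed direction. With a threshold of 0.01 in place of 0.05, the pathway genes lower at 24 h were 5 in place of 8 by the authors' Wald test, without Gapdh, Tkt and Pkm, and Pparg at 12 h and Pdha1, Dld and Shpk at 24 h lost their calls too. The stricter threshold itself sets these losses. Pkm, at -0.11, was the least stable call: its adjusted p in the Wald test was 0.0545 when adjusted over all genes with a p, 0.0619 with folds centred on the median gene and 0.143 with the SE raised to the running median, which leaves 7 genes lower in each case. Shpk had an adjusted p of 0.0545 over all genes and Pdha1 0.0558 with the raised SE. Both called rises at 12 h and all 3 at 24 h passed under every alternative that was run. No paired analysis was possible because the tables hold no value per library, and leaving out each replicate in turn was not run for the same reason. Where 1 library carries a fold cannot be seen from these values. The lowest mean with an adjusted p was 1.84 normalised counts at 12 h and 7.34 at 24 h, and genes below could not be called.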
